A study of Mus musculus with 16 samples.

Results

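The sequence read most often in RNA of 30 to 40 nt, cut from a gel, of mouse sperm was 33 nt long and began a family that held 26.3% of all reads of that library. The family was chosen by this measured value: its anchor had the most reads (2370040) in the gel-cut library of males on a normal diet, where the next most read sequence had 637908, and every sequence of any length with the same first 15 bases was counted as a member. This gave 1859 members among 2251023 distinct sequences of the 4 sperm libraries. The reads were of mature sperm from the cauda epididymis of male C57BL/6 mice, bought at 5 weeks of age and assigned at random to a diet, either normal (ND) or high in fat (HFD). No mutation, transgene or injected agent was given for these males, and both diet groups went through the same lysis of somatic cells before the RNA was extracted. For each diet, small RNA was sequenced once from whole sperm RNA and once from the gel cut, so that each of the 4 groups had 1 library. The labels do not say how many males gave the RNA of a library.

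Transfer RNAs carry amino acids to the ribosome, and their anticodon loop can be cut by nucleases, which leaves a 5′ fragment that ends in or just before the anticodon. Such 5′ fragments are abundant in mature sperm, and sperm take up many of them while they pass through the epididymis. In mature valine transfer RNA with the anticodon AAC the first anticodon base is changed to inosine, which reverse transcriptase reads as G. Many transfer RNAs also carry a dimethylated guanosine at position 26, and reverse transcriptase often misreads such a base.

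The anchor is shown first because it defines the family, with the 15 bases of the rule in capitals. The other lines show the ends that the reads took past the anchor, with the added bases in capitals, and the 1 transfer RNA gene whose sequence was used, with its anticodon in capitals.
anchor, 33 nt: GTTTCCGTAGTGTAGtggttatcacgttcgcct
C branch, 34 nt: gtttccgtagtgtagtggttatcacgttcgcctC
C branch, 36 nt: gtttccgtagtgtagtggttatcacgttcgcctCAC
G branch, 34 nt: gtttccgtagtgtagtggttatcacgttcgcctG
G branch, 35 nt: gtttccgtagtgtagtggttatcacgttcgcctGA
G branch, 36 nt: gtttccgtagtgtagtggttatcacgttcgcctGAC
n-TVcac9: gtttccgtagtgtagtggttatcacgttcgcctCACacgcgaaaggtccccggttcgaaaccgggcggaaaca

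The anchor was identical to bases 1 to 33 of n-TVcac9 (gene ID 102467624), a valine transfer RNA gene of 73 bases at chr13:23446142-23446214 on the minus strand of GRCm38.p6, by the RefSeq sequence and coordinates. Its anticodon CAC stands at bases 34 to 36, so the anchor ends directly before it. RefSeq lists 22 valine transfer RNA genes by name, of which 11 have the anticodon CAC, 8 AAC and 3 TAC, and only n-TVcac9 could be compared by sequence. Reads of up to 33 bases therefore cannot be assigned to one of these genes. Positions below are counted from 1 at the 5′ end of the anchor.

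The libraries held 9517720 reads (whole RNA, ND), 9539556 (whole RNA, HFD), 10368455 (gel-cut, ND) and 10605324 (gel-cut, HFD), and all sequences were 18 to 44 nt long. RPM below is the number of reads of a sequence per 1000000 reads of its table. Intervals are exact 95% intervals (Clopper-Pearson for shares, conditional binomial for ratios) and cover counting error only, as PCR copies without molecular identifiers do not count molecules independently. Each group having 1 library, no difference was tested. RPM is a share of all reads, and a lower share of a sequence in these bulk libraries cannot be told apart from fewer sperm that carry it or from more of other RNA. Of the marker microRNAs, those of the epididymis (9 of 10 matched, among them let-7) had 164235 and 147162 RPM in whole RNA of ND and HFD and 213 and 215 RPM in gel-cut RNA. Those of germ cells (2 of 3 matched) had 57.7 and 80.1 RPM in whole RNA and 0 in both gel-cut libraries, and those of blood (3 of 3 matched) had 113 and 273 RPM in whole RNA and 0.0964 and 5.47 RPM in gel-cut RNA. MicroRNAs are shorter than the RNA kept by the gel cut, so the gel-cut values cannot show which cells gave the RNA. The lists, which place let-7 under the epididymis, were not tested for being specific to a tissue. The part of the marker microRNAs in the results below was not tested. The names miR-34c-5p, miR-143-3p, miR-122-5p, miR-1a-3p and miR-133a-3p were not matched.

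The family led the gel-cut libraries and was one of several large families in whole RNA. It had 10539 RPM in whole RNA of ND, 11793 RPM in whole RNA of HFD, 263458 RPM in gel-cut RNA of ND and 134442 RPM in gel-cut RNA of HFD. These are shares of 1.05% (1.05 to 1.06), 1.18% (1.17 to 1.19), 26.3% (26.3 to 26.4) and 13.4% (13.4 to 13.5) of all reads. Among families made in the same way the valine family ranked 9 and 8 in whole RNA of ND and HFD and 1 in both gel-cut libraries. Its level in gel-cut RNA of ND is the value that chose it, so no contrast with whole RNA is drawn from these ranks.

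Gel-cut RNA held 24.997 times (24.8 to 25.2) the RPM of whole RNA in ND and 11.4 times (11.3 to 11.5) in HFD. The anchor was picked for its reads in gel-cut RNA of ND, so these ratios are a description. Without the anchor they were 4.30 (4.27 to 4.33) and 1.92 (1.90 to 1.93). Scaled to the median of sequences with at least 100 RPM in both libraries, the ratios were 30.6 in ND and 24.1 in HFD. Among reads of 30 to 40 nt alone, the family made up 1.87% and 2.28% in whole RNA but 34.6% and 21.1% in gel-cut RNA of ND and HFD.

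The anchor itself had 2429 RPM in whole RNA of ND, 2192 in whole RNA of HFD, 228582 in gel-cut RNA of ND and 116048 in gel-cut RNA of HFD. It made up 23.04% and 18.6% of family reads in whole RNA and 86.8% and 86.3% in gel-cut RNA. It ranked 37 and 39 among all single sequences of whole RNA and 1 in both gel-cut libraries. In whole RNA of ND the most read member was the 34-nt end of the C branch, 1 base longer, and in the other 3 libraries it was the anchor.

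Most of the 1859 members were rare. In all, 901 had 1 read over the 4 libraries together, 27 reached 100 RPM in any library and 21 had at least 10 RPM in all 4. Each library held 961, 967, 705 and 552 members (whole ND, whole HFD, gel-cut ND, gel-cut HFD). The 204 members seen in all 4 libraries held 93.0%, 91.9%, 99.9% and 99.9% of the family's reads there. A further 972 members were seen only in whole RNA and held 6.35% and 7.44% of the family's reads in whole ND and HFD. Another 488 were seen only in gel-cut RNA and held 0.0536% and 0.0485% of the family's reads in gel-cut ND and HFD. The share of all sequences seen in a single kind of RNA was not computed, so these counts do not set the family apart.

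Lengths were narrow in gel-cut RNA and broad in whole RNA. The anchor was picked for its reads in gel-cut RNA of ND, so the narrow lengths there are a description. The mean length of the family's reads was 32.6 nt (SD over reads 3.01) in whole RNA of ND, 32.2 (3.38) in whole RNA of HFD, 33.06 (0.597) in gel-cut RNA of ND and 33.10 (0.632) in gel-cut RNA of HFD. Reads of 33 nt made up 25.2%, 20.6%, 90.2% and 90.1% of the family in the same order. Between the diets, 15.0 points of the whole-RNA length distribution would have to move to another length to make both equal, against 0.799 points in gel-cut RNA. Between whole and gel-cut RNA of one diet it was 65.0 points in ND and 69.5 in HFD.

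In whole RNA the family was spread over 31 to 36 nt. The 31-nt reads were 8.26% of the family in ND and 10.8% in HFD, those of 32 nt 14.8% and 22.2%, those of 34 nt 30.1% and 21.0%, those of 35 nt 7.53% and 6.56%, and those of 36 nt 6.48% and 9.14%. In gel-cut RNA the lengths next to 33 nt were 32 nt with 4.15% and 3.67%, 36 nt with 2.84% and 3.62%, and 34 nt with 2.45% and 2.42%. The share at 35 nt, between those, was 0.0878% and 0.108%.

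The excess in gel-cut RNA differed from length to length within the window of the cut. At 33 nt the family's RPM was 89.4 times (88.3 to 90.5) higher in gel-cut than in whole RNA of ND and 49.9 times (49.2 to 50.5) in HFD. At 32 nt the ratios were 7.01 (6.89 to 7.13) and 1.88 (1.85 to 1.91), and at 34 nt 2.03 (2.00 to 2.06) and 1.32 (1.30 to 1.34). At 31 nt they were 0.353 (0.339 to 0.368) and 0.0408 (0.0374 to 0.0444), and at 35 nt 0.292 (0.279 to 0.305) and 0.187 (0.177 to 0.198). Family reads of 31 and 35 nt were thus less abundant in gel-cut RNA, and those of 32 and 34 nt more abundant. At 36 nt they were 11.0 (10.7 to 11.2) and 4.51 (4.42 to 4.61). All other reads had ratios of 0.831 in ND and 0.951 in HFD at 33 nt, 1.88 and 1.56 at 32 nt, and 0.637 and 1.04 at 34 nt. They had 0.636 and 0.464 at 31 nt, 0.644 and 1.84 at 35 nt, and 1.03 and 5.24 at 36 nt. The anchor is 33 nt long and was picked for its reads in gel-cut RNA of ND. The family's ratios at these lengths are therefore a description, and no contrast with other reads is drawn from them.

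Ends before the anticodon followed the gene. The 16 members identical to the gene up to base 33 or an earlier base held 49.2% and 52.9% of the family in whole RNA and 90.9% and 89.8% in gel-cut RNA. Members of every length from 18 to 32 nt were seen, 15 in all, and 10 of these had no read in either gel-cut library, where a limit of 3 reads is 0.289 RPM (ND) or 0.283 RPM (HFD). Those 10 were all shorter than 30 nt, which is below the length of the cut. The 5 seen in gel-cut RNA end at bases 23, 29, 30, 31 and 32. Examples of these shorter ends are shown to place them on the gene.
23 nt: gtttccgtagtgtagtggttatc
29 nt: gtttccgtagtgtagtggttatcacgttc
31 nt: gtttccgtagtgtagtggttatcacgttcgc
32 nt: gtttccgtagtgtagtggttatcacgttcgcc

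The 32-nt end, 1 base short of the anchor, had 1204 and 1795 RPM in whole RNA of ND and HFD and 10490 and 4676 RPM in gel-cut RNA. The 31-nt end had 799 and 1165 RPM in whole RNA and 280 and 40.2 RPM in gel-cut RNA. Both were higher in HFD in whole RNA and lower in HFD in gel-cut RNA. The 23-nt end, the most abundant member of 18 to 24 nt, had 205 and 365 RPM in whole RNA and 37.8 and 12.3 RPM in gel-cut RNA, where it lies below the length of the cut. The 29-nt end, the most abundant of 25 to 29 nt, had 18.3 and 17.4 RPM in whole RNA and 6.65 and 8.30 RPM in gel-cut RNA, and its counting interval for the diets includes 1 in both kinds of RNA.

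Past base 33 the reads split by the next base. Those with C there followed n-TVcac9, and those with G matched no valine gene sequence used here. The C branch had 2837, 2295, 5255 and 2654 RPM and the G branch had 1400, 1656, 8073 and 5171 RPM (whole ND, whole HFD, gel-cut ND, gel-cut HFD). Reads with A there had 14.2, 20.9, 1.06 and 0.943 RPM, and reads with T had 12.8, 12.3, 226 and 98.4 RPM. Of the reads in the C and G branches the G branch held 33.05% (32.6 to 33.5) and 41.9% (41.4 to 42.4) in whole RNA of ND and HFD, and 60.6% (60.3 to 60.8) and 66.1% (65.8 to 66.4) in gel-cut RNA. Its share was thus higher in HFD than in ND in both kinds of RNA, and higher in gel-cut than in whole RNA for both diets, with 1 library each.

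The branches ended at different bases. The C branch ended at base 34 in 92.4%, 90.9%, 97.8% and 96.2% of its reads, 1 base into the anticodon. The G branch ended at base 34 in 17.3% and 8.48% of its reads in whole RNA, at base 35 in 43.8% and 36.2%, and at base 36, the last base of the anticodon, in 37.1% and 53.5%. In gel-cut RNA the G branch ended at base 36 in 86.5% and 87.9% of its reads and at base 35 in 1.95% and 2.00%. The 36-nt G end, GAC, had 520 and 886 RPM in whole RNA and 6983 and 4546 RPM in gel-cut RNA. The 36-nt C end, CAC, had 105 and 109 RPM in whole RNA and 86.7 and 63.2 RPM in gel-cut RNA. Reads that ended in AAC at base 36 numbered 1, 4, 7 and 7, against 4947, 8449, 72408 and 48207 that ended in GAC. Almost all reads of the pair were thus GAC.

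Members longer than the anticodon were few. The most abundant of 37 to 44 nt was a G-branch read that extends past the anticodon, with 1 and 3 reads in whole RNA and 47.5 and 11.2 RPM in gel-cut RNA.
37 nt: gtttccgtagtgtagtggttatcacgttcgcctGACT
Its last base differs from that of n-TVcac9 after the anticodon.

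Bases that differ from the gene were concentrated at position 26. Over bases 16 to 33, which the rule did not fix, 91.7% and 91.6% of reads of at least 33 nt in whole RNA and 96.2% and 95.8% in gel-cut RNA matched the gene, among reads with up to 3 differences. Position 26 differed in 5.11% (4.95 to 5.28) and 5.16% (4.99 to 5.34) of reads in whole RNA and in 2.20% (2.18 to 2.22) and 2.31% (2.28 to 2.33) in gel-cut RNA. It was the highest of the 18 positions in each of the 4 libraries. Apart from positions 20, 26 and 27, the median position differed in 0.115% and 0.0979% of reads in whole RNA and in 0.0296% and 0.0316% in gel-cut RNA. These members are shown with the changed bases in capitals.
G26A: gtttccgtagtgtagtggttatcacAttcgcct
G26T: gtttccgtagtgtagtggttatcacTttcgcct
G26T on the C branch, 34 nt: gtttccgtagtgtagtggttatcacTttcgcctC
G26A on the G branch, 36 nt: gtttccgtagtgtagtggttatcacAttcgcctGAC
T20C with T27C: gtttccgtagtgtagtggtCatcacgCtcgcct
T27C: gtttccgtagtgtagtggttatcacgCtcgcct

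The base read at position 26 differed with the end of the read and with the kind of RNA. G26A was found in 1.75% and 2.08% of reads of at least 33 nt in whole RNA and in 1.54% and 1.61% in gel-cut RNA. G26T was found in 2.69% and 2.44% in whole RNA and in 0.422% and 0.437% in gel-cut RNA, so the gap between the kinds of RNA lay mostly in G26T. On the C branch G26T stood at 3.97% (3.75 to 4.20) and 3.71% (3.47 to 3.95) in whole RNA and at 0.237% (0.198 to 0.280) and 0.0759% (0.0476 to 0.115) in gel-cut RNA. On the G branch it stood at 1.89% (1.67 to 2.13) and 1.74% (1.55 to 1.95) in whole RNA and at 0.367% (0.328 to 0.409) and 0.236% (0.198 to 0.279) in gel-cut RNA. Within whole RNA, G26T was thus more frequent on the C branch than on the G branch in both diets. The 34-nt C-branch member with G26T had 115 and 86.5 RPM in whole RNA and 12.9 and 2.07 RPM in gel-cut RNA. The 33-nt member with G26T had 40.9 and 37.2 RPM in whole RNA and 1007 and 539 RPM in gel-cut RNA, and the one with G26A had 46.4 and 60.1 RPM and 3531 and 1865 RPM.

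T20C and T27C were found together more often than either alone in all 4 libraries. Both changes were on the same read in 0.991% and 1.12% of reads of at least 33 nt in whole RNA and in 0.617% and 0.679% in gel-cut RNA. T20C without T27C was found in 0.364% and 0.325% in whole RNA and in 0.0102% and 0.0141% in gel-cut RNA. T27C without T20C was found in 0.0821% and 0.0653% in whole RNA and in 0.138% and 0.215% in gel-cut RNA. Nearly every T20C read of gel-cut RNA thus also had T27C. The 33-nt member with both had 31.6 and 36.2 RPM in whole RNA and 1405 and 808 RPM in gel-cut RNA. The sequences used here do not hold a valine gene with both changes.

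The rule fixed the first 15 bases and so left out close relatives of the family. Sequences with 1 difference in those bases, 1821 in all, had 380 and 470 RPM in whole RNA and 7504 and 3967 RPM in gel-cut RNA, or 2.85% to 3.98% of the family's level. G7A was the most frequent single change of the anchor in that stretch, at 1.497% and 1.80% of the anchor's reads in whole RNA and 1.09% and 1.10% in gel-cut RNA. Sequences that began 1 to 5 bases into the anchor had 836 and 723 RPM in whole RNA and 4705 and 2019 RPM in gel-cut RNA. Those with bases added before the first base had 3.89 and 2.41 RPM and 7.43 and 1.23 RPM. In whole RNA, reads identical to n-TVcac9 that began at bases 2 to 33 had 988 and 826 RPM, against 8011 and 8526 RPM for those that began at base 1.

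Fragments of the rest of the same transfer RNA were rare in gel-cut RNA. Reads identical to n-TVcac9 followed by the added CCA tail, and starting at the anticodon or later, had 759 and 1026 RPM in the whole libraries. In gel-cut RNA they had 31 reads in ND (2.99 RPM) and 1 read in HFD (0.0943 RPM). Of them, 61.1% and 79.6% in whole RNA ended in CCA, the 3′ end of a mature transfer RNA. Of the whole-RNA reads of this kind 24.0% in ND and 4.42% in HFD were 30 to 40 nt long, which is 182 and 45.4 RPM. In gel-cut RNA, reads that began at base 1 had 244697 and 123444 RPM.

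Between the diets, the family was slightly higher in HFD in whole RNA, which the rule did not use. The ratio of HFD over ND was 1.12 (1.11 to 1.13). Ends before base 33 had a ratio of 1.47 (1.45 to 1.49) as a group, while the anchor had 0.902 (0.886 to 0.920) and reads past base 33 had 0.930 (0.917 to 0.942). Of the 11 ends before base 33 with at least 10 RPM in both whole libraries, 9 were higher in HFD by 1.33 to 1.86 times, and the ends at bases 27 and 29 were lower. Below that level, the end at base 18 was lower (0.537, 0.389 to 0.736), and intervals at bases 25, 26 and 28 include 1. Family reads of 25 to 29 nt were lower in HFD, with a ratio of 0.854 (0.772 to 0.944). The C branch had a ratio of 0.809 (0.794 to 0.823) and the G branch 1.18 (1.16 to 1.21). Within the G branch, ends at base 34 had 0.579 (0.541 to 0.619), ends at base 35 had 0.975 (0.940 to 1.01) and ends at base 36 had 1.70 (1.65 to 1.77). In whole RNA of HFD, ends thus lay more often before the anchor, taken as a group, or at the end of the anticodon. They lay less often 1 base past the anchor, and reads of 25 to 29 nt went against the group.

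Among members with at least 100 RPM in one of the whole libraries, 14 of the 1859 could be compared. Of these, 1 was higher in HFD by at least 2 times, against a background of 8.79% of all 956 such sequences, and 0 were lower, against 27.7%. The median ratio of the 14 was 1.18, and that of all 956 was 0.866. The member past 2 times is shown with the last base in capitals, which differs from the gene (C32A).
32 nt, ending in A: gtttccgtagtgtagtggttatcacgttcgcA
Its level was 200 RPM in ND against 581 RPM in HFD (ratio 2.91, 2.76 to 3.06), and the gel-cut libraries held 12 and 4 reads. It could be the 31-nt end with 1 added A or a change of the last base, which cannot be told apart. The 34-nt G-branch end had the lowest ratio of the 14, from 243 to 140 RPM (0.579).

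In gel-cut RNA the family was lower in HFD, by a ratio of 0.510 (0.509 to 0.511). This contrast holds the library that chose the family, so its values are a description. Over 277 sequences with at least 100 RPM in both gel-cut libraries the median ratio was 0.626, a log2 shift of -0.68, and relative to that median the family stood at 0.815. The anchor had a ratio of 0.508 (0.507 to 0.509), the C branch 0.505 (0.498 to 0.512) and the G branch 0.640 (0.634 to 0.647). Relative to the median these were 0.811, 0.807 and 1.02, so the G branch lies above 1 on that scale. In whole RNA the median ratio was 1.01 and the family stood at 1.11 relative to it.

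Of 20 members with at least 100 RPM in one of the gel-cut libraries, 8 were lower in HFD by at least 2 times, where 26.8% of all 930 such sequences were. In the other direction 1 was higher, where the background is 47.3%. Some of the 8 reached 100 RPM only in ND, the library that chose the family, among them the 31-nt end (280 and 40.2 RPM). The member that was higher reached that level only in HFD (57.5 and 175 RPM). These counts are thus a description, and no contrast with the background is drawn from them. The median ratio was 0.531 for the 20 and 1.23 for all 930. These 930 reach 100 RPM in either gel-cut library. The median of 0.626 is over the 277 that reach it in both, and members of the family are among those. Relative to the median of 0.626, 2 of the 20 members and 10.65% of all 930 sequences were lower by at least 2 times. The members at the extremes are shown with the base that differs in capitals; the 30-nt member lacks 3 bases next to the shared start.
T33C: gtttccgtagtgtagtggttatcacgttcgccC
T33G: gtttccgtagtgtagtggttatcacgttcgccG
30 nt, 3 bases missing: gtttccgtagtgtagttatcacgttcgcct
The T33C member had 57.5 RPM in gel-cut ND against 175 in gel-cut HFD, a ratio of 3.05 (2.78 to 3.35), with 6 and 10 reads in whole RNA. The 30-nt member had 197 and 18.2 RPM, a ratio of 0.0924 (0.0793 to 0.107), with 3 and 5 reads in whole RNA. The T33G member had 265 and 105 RPM, a ratio of 0.396 (0.369 to 0.424), with 7 reads and 1 read in whole RNA. All 3 were thus close to the 3-read limit in whole RNA. T27C alone, with 332 and 260 RPM (ratio 0.783), and the 36-nt G-branch member with G26A, with 175 and 121 RPM (0.688), stood at 1.25 and 1.10 relative to the median, above 1.

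The valine family was set beside 2 other large families. These had the next highest levels in gel-cut RNA among families with at least 100 RPM in both whole libraries, and are shown by their most read sequence, to allow comparison of the 5′ ends.
glycine-type: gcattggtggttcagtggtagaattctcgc
ribosomal-type: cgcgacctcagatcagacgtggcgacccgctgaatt
As background, the first begins as glycine transfer RNA does and the second as 28S ribosomal RNA does. The first had 7331 and 18390 RPM in whole RNA and 110851 and 79526 RPM in gel-cut RNA, with ratios of gel-cut over whole RNA of 15.1 in ND and 4.32 in HFD. The ribosomal-type family had 6329 and 6601 RPM and 49934 and 117846 RPM, with ratios of 7.89 and 17.9 in ND and HFD. Of these 3 families, only the ribosomal-type one had its highest level in gel-cut RNA of HFD. The 2 families shown do not stand for all large families of these libraries. In gel-cut RNA of ND and HFD the main length held 90.2% and 90.1% of the valine family (33 nt). It held 55.9% and 41.2% of the glycine-type family (30 nt). In the ribosomal-type family the main length was 41 nt in ND, with 26.5%, and 36 nt in HFD, with 51.4%. The rule chose the valine family by its most read sequence in gel-cut RNA of ND, so no contrast in this share is drawn. These differences between families were not tested.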

How the data were processed

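Small RNA of mouse sperm was measured in 4 libraries. The authors deposited a table for each library with every distinct sequence, its length and its count of reads. Aligner, adapter trimming, quality filter and genome build of these tables are not given in the sources used here. The labels' protocols name a TruSeq small RNA kit and, for 2 libraries, a cut of 30-40 nt from a denaturing gel. Embryo, islet and bisulfite libraries of the series were not used here.

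From the deposited counts, RPM was computed over all reads of a table (9517720 to 10605324), with Python 3.11.15, pandas 2.3.3, NumPy 2.4.6 and SciPy 1.17.1. A count of 0 allows up to 3 reads. For base changes, members of at least 33 nt were compared with the anchor base by base and kept with up to 3 differences. Levels, lengths and ratios of the family used every member. Members counted between diets had at least 100 RPM in either library and a ratio of at least 2 or at most 0.5. Named members were the most read in each library, the 10 highest means, the most abundant of each length class and the 3 largest ratios in each direction with at least 10 RPM in both libraries. Scripts were tested on simulated data. Members and lists were chosen with earlier results of these data known. Alternatives covered the denominator, scaling, length of the shared start and rare sequences. The RefSeq tables used here hold sequence for 1 valine transfer RNA gene, which lay in a promoter window. Of 3 families chosen for comparison by their level in gel-cut RNA, 1 is not reported here.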

Additional observations from a re-analysis of the deposited data

Results flagged for a closer look

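The family as a whole had opposite directions between the diets, higher in HFD in whole RNA (ratio 1.12) and lower in gel-cut RNA (0.510). The whole-RNA ratio was thus 2.19 times the gel-cut ratio. With 1 library per group this difference was not tested. The anchor alone was lower in HFD in both kinds of RNA, with 0.902 and 0.508. Reads past base 33 were also lower in both, with 0.930 and 0.582. Ends before base 33, as a group, had 1.47 in whole RNA and 0.437 in gel-cut RNA. The gel-cut ratios of the family and its members hold the library that chose the family, so they are a description. Before scaling, opposite directions were also seen in the glycine-type family, with ratios of 2.51 in whole RNA and 0.717 in gel-cut RNA. Relative to the median given below, its gel-cut ratio was 1.15 and no longer in the opposite direction. The ribosomal-type family was higher in HFD in both kinds of RNA, with ratios of 1.04 and 2.36. Among named members with at least 10 RPM in all 4 libraries, 5 had opposite directions with counting intervals that left out 1 in both kinds of RNA, also untested. The share of all sequences with opposite directions was not counted, so these 5 are not set apart from other sequences. The median ratio over sequences outside and inside the family was 1.01 in whole RNA and 0.626 in gel-cut RNA. Among members with less than 10 RPM in a library, the 36-nt G-branch member with G26A had 2.23 in whole RNA and 0.688 in gel-cut RNA. The 32-nt member ending in A had 2.91 and 0.326, the latter from 12 and 4 reads. The member with T20C and T27C had 1.14 and 0.575, and its whole-RNA interval (0.977 to 1.34) includes 1. The whole-RNA ratio was 10.2 times the gel-cut ratio for the 31-nt end, 5.49 times for the 23-nt end, 3.34 times for the 32-nt end, 2.62 times for the 36-nt end of the G branch and 2.45 times for the 33-nt member with G26A. The gel-cut ratios depend on the scaling: relative to the median gel-cut ratio of 0.626 the 36-nt end of the G branch stood at 1.04 and no longer moved in the opposite direction, while the other 4 of those 5 members and the family stayed below 1.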

How the results depend on the processing

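Every direction of the family's ratios was kept under the alternatives run. The gel-cut ratio of HFD over ND, 0.510, was 0.608 over reads of 30-40 nt, 0.434 with the family left out of the denominator, 0.815 with median ratio scaling, 0.527 without the anchor and 0.509 with members that follow the majority sequence. The whole-RNA ratio, 1.12, was 1.22 over 30-40 nt, 1.11 with median scaling, 1.14 without sequences of 1 read, 1.18 without the anchor and 1.20 with members of the majority sequence. Gel-cut over whole RNA in ND, 24.997, was 18.6 over 30-40 nt, 33.6 with the family out of the denominator, 30.6 with median scaling, 25.4 with 20 shared bases, 23.2 without sequences of 1 read, 4.30 without the anchor and 37.7 with the majority sequence. In HFD, 11.4, the same settings gave 9.25, 13.0, 24.1, 11.6, 10.4, 1.92 and 16.0. The mean length in whole RNA of ND was 32.7 nt with 20 shared bases, 32.5 with each sequence counted once or without the anchor (32.50 in both), and 31.9 with the majority sequence, and in whole RNA of HFD it was 32.3, 32.3, 32.1 and 31.6 nt. In gel-cut ND it was 33.06 nt with 12 shared bases, 33.07 with 20, 33.6 with each sequence counted once, 33.5 without the anchor and 33.04 with the majority sequence, and in gel-cut HFD 33.09 with 12 shared bases, 33.67 with each counted once, 33.70 without the anchor and 33.07 with the majority sequence. With at least 10 RPM in place of 100, 4 of 45 members were higher in whole RNA (10.7% of all sequences at that level), and of 85 in gel-cut RNA 2 were higher (41.3% of all) and 46 lower (36.3% of all). Median scaling left 2 of 20 lower in gel-cut RNA (10.65% of all). The gel-cut counts hold the library that chose the family, so they are a description. The cause was not tested. No paired analysis was possible because each sperm group had 1 library and no replicate number. Depth is limiting for members near 3 reads, and 901 members had 1 read in all.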
